A study of Mus musculus with 10 samples.

Results

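The 7 genes described here write, copy, read or remove DNA methylation: Dnmt1, Dnmt3a, Dnmt3b, Uhrf1, Tet1, Tet2 and Tet3. They were taken by symbol from the Entrez Gene identifiers of the count files, and all 7 of 7 were found among 26301 identifiers. All 7 had enough counts to be tested, among 15540 genes that passed a filter on low counts. The samples were 10 RNA sequencing libraries of spinal cord of C57BL/6 mice, an inbred laboratory strain, with no treatment or genetic change named in the labels. They comprised 3 male and 3 female libraries at 8 weeks of age, and 2 male and 2 female libraries at 4 weeks. Replicates carry numbers only. Since the labels do not say whether different animals were used, the p-values speak to the variation among these libraries, part or all of which may be technical.

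DNA methylation in vertebrates is placed mainly on cytosines that precede a guanine (CpG sites). Dnmt3a and Dnmt3b are de novo methyltransferases that set new marks. Dnmt1 is the maintenance methyltransferase, which copies marks onto the daughter strand after replication, and Uhrf1 is the reader that binds hemimethylated CpG sites and brings Dnmt1 to them. Tet1, Tet2 and Tet3 are dioxygenases that oxidize methylated cytosine, the first step of active demethylation, and use alpha-ketoglutarate as a cosubstrate. Neurons carry unusually high methylation, also outside CpG sites, which Dnmt3a places during postnatal life. In a tissue of mostly non-dividing cells, Uhrf1 is known mainly as a gene of proliferating cells.

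A library held between 8453559 and 11594610 counts. The 6 Hox genes listed for the cord summed to between 216 and 231 CPM at 8 weeks and between 180 and 204 CPM at 4 weeks. In every library the 8 neuron genes summed to 5210 CPM or more. The 8 mature oligodendrocyte genes summed to 36800 CPM or more, so nervous tissue was present in every library. Levels throughout are TMM-scaled CPM, counts scaled to the library total with a correction for library composition. Transcripts of tissues outside the cord were also present. The 12 skeletal muscle genes summed to between 39.5 and 153 CPM at 8 weeks and between 511 and 2010 CPM at 4 weeks. The 11 cartilage and bone genes summed to between 33 and 53 CPM at 8 weeks and between 54.2 and 101 CPM at 4 weeks, and 8 of 10 tested fell. Their most abundant gene, Acan, was higher at 8 weeks, at 21.3 to 28.9 CPM against 16.6 to 20.7 CPM at 4 weeks. The 8 fat genes summed to between 7.76 and 49.7 CPM at 8 weeks and between 38.5 and 285 CPM at 4 weeks, and 7 of 7 tested fell. The part of these tissues in the age differences was not tested. The 7 lung epithelium genes summed to 856 CPM in male 8-week library 2 and 99.9 CPM in male 8-week library 3, and to 9.46 CPM or less elsewhere. The 6 adrenal cortex genes summed to 123 and 92.1 CPM in the male 4-week libraries and to 11 CPM or less in the others.

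At 8 weeks the libraries held less Uhrf1 and less Dnmt3a mRNA than at 4 weeks, and these were the genes of the 7 that changed. Uhrf1 was at 0.478 times its 4-week level (95% interval 0.355 to 0.645) and Dnmt3a at 0.714 times (0.638 to 0.799). Dnmt1 stood at 0.98 times, with an interval from 0.882 to 1.09. Tet3 stood at 0.801 times, with an adjusted p of 0.0606 by edgeR's quasi-likelihood test, and Tet1, Tet2 and Dnmt3b did not pass. The call was an adjusted p under 0.05 by that test with Benjamini-Hochberg adjustment over all genes tested, with sex in the model. By this rule 2 of the 7 were lower and none higher, and DESeq2 called 3 and limma-voom 2 of them. Over all genes tested, 5.01% were called lower, 1.61% higher and 6.62% in either direction. The median log2 fold change was -0.29 over the 7 genes and 0.01 over all genes tested. In bulk RNA, fewer cells of a type and less RNA per cell cannot be told apart.

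**Figure D1:**
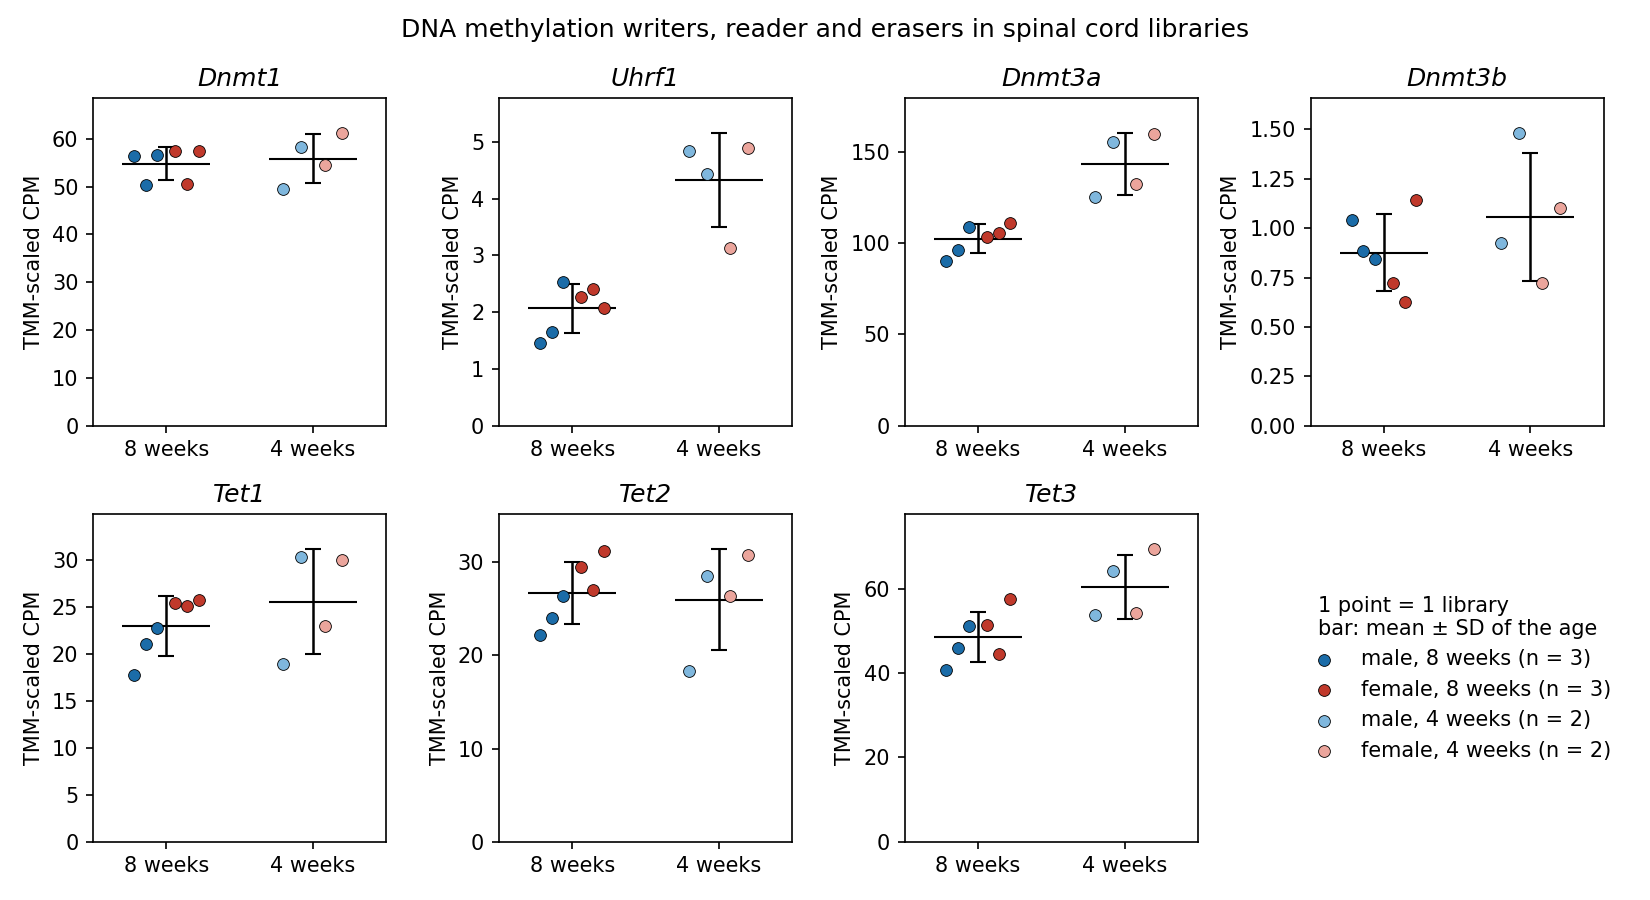
TMM-scaled CPM of each gene (y axis, linear from 0) in the 6 libraries at 8 weeks and the 4 libraries at 4 weeks (x axis), with 1 point per library coloured by sex and age, and the mean ± SD of each age. All 8-week points lie below every 4-week point for Uhrf1 and Dnmt3a, while the ages overlap for the other 5 genes.

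For each of the genes that changed, the promoter at 1 annotated start is shown as reference sequence. Counts per gene do not tell which start these mRNAs use. Each promoter window is a stretch of 250 bases before an annotated RefSeq transcription start, read in the direction of the gene from assembly GRCm38.p6. The authors' counts used the older build mm9, so these positions are not those of the count files. The windows shown overlap no exon of the GENCODE M21 annotation. Capitals mark a match to an E2F-type motif, searched on both strands in the form TTCCCGC, in the form TTGGCGC, with the letters TTCGCGC or with the letters TTGCCGC.
Uhrf1, plus strand, chr17:56304063-56304312: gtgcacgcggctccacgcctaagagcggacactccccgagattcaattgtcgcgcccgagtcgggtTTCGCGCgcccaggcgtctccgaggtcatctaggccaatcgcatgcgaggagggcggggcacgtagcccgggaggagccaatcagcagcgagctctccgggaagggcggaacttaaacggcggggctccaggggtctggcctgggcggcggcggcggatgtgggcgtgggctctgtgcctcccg
Dnmt3a, plus strand, chr12:3806730-3806979: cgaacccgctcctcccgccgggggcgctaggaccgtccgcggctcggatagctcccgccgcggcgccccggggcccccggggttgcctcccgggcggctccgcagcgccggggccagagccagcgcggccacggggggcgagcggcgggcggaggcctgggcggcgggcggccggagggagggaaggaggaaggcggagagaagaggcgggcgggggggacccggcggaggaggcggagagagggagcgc
The Uhrf1 window holds 30 CpG sites and 1 such match, TTCGCGC, starting 184 bases before the start. The Dnmt3a window holds 38 CpG sites and 0 matches. Among 32851 RefSeq windows of 250 bases the median number of CpG sites was 6, and 7.89% of windows held such a match. Every form searched contains a CpG site, and this share is not matched to the CpG content of the Uhrf1 window. The other Uhrf1 start in the table also had 1 match, TTCCCGC, starting 48 bases before it. It held 10 CpG sites and overlaps a Uhrf1 exon, so it is not shown. The other Dnmt3a starts, with 40 and 15 CpG sites, had 0 matches. Of 3 Dnmt1 windows, those with 2 and 7 CpG sites had 0 matches, and the one with 26, which overlaps a Dnmt1 exon, had 2. A match describes the letters only.

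Uhrf1 was the member with the largest change, and it was scarce. Its level was 1.46, 1.65 and 2.53 CPM in male libraries 1 to 3 and 2.27, 2.41 and 2.08 CPM in female libraries 1 to 3 at 8 weeks. At 4 weeks it was 4.84 and 4.44 CPM in the male libraries and 3.12 and 4.9 CPM in the female libraries. The ages did not overlap, and female 4-week library 1 was the lowest of its age. Uhrf1 averaged 2.07 ± 0.426 CPM at 8 weeks (SD, n = 6) and 4.33 ± 0.828 CPM at 4 weeks (SD, n = 4). It fell by 1.06 on the log2 scale (SE 0.20, edgeR adjusted p = 0.00499), and was not called without both male 4-week libraries, at -0.84 (edgeR adjusted p = 0.184). These levels rest on 14 to 51 counts per library, so single values are imprecise. Of all genes tested, 4.84% had every 8-week library below every 4-week library and 2.89% had every one above.

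Uhrf1 moved beside genes of dividing cells. Of 19 cell division genes tested, 16 fell, none rose and 3 did not pass, with a median log2 fold change of -1.23. Of 24 DNA replication genes, 5 fell and 19 did not pass, with a median of -0.32. Top2a, the topoisomerase of dividing cells, fell by 1.48 (SE 0.19, edgeR adjusted p = 0.000318). Mki67, a proliferation marker on mitotic chromosomes, fell by 1.58 (SE 0.24, edgeR adjusted p = 0.000923), and Ccna2, a cyclin of S phase and mitosis, by 1.23 (SE 0.20, edgeR adjusted p = 0.00166). Rrm2, a subunit of ribonucleotide reductase that supplies DNA building blocks, fell by 1.26 (SE 0.19, edgeR adjusted p = 0.00094). Mcm5 and Mcm6, subunits of the replicative helicase, fell by 0.67 (SE 0.17, edgeR adjusted p = 0.0299) and 0.55 (SE 0.14, edgeR adjusted p = 0.0343). Of its other subunits Mcm3 fell by 0.59 (SE 0.16, edgeR adjusted p = 0.0351). Mcm2 at -0.03, Mcm4 at -0.04 and Mcm7 at -0.18 did not pass. Without both male 4-week libraries, 3 of the 19 cell division genes and 1 of the 24 replication genes were called, and without male 8-week libraries 2 and 3 these counts were 8 and 1. Ccna2 and Rrm2 were at edgeR adjusted p values of 0.0794 and 0.0697 without both male 4-week libraries. That fit called 393 genes in all, against 1028 with all libraries. Of the 10 fits that left out 1 library, Mcm5 was called in 4 and Mcm6 in 1, that without male 4-week library 2, and their highest edgeR adjusted p values were 0.112 and 0.14.

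The 3 tested genes whose profile over the 10 libraries lay nearest to that of Uhrf1 were Ccna2, E2f2 and Cenpe. E2f2 is a transcription factor of the E2F family, and Cenpe is a kinetochore motor of mitosis. Nearness was the root mean square difference of log2 CPM, each gene centred on its own mean. It was 0.16 for Ccna2, 0.18 for E2f2 and 0.20 for Cenpe, while the profile of Uhrf1 itself had an SD of 0.58 over the libraries. Ccna2 and Cenpe are also in the cell division list. Because the 3 genes were picked by nearness to the profile of Uhrf1, their likeness to it is no separate result.

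Markers of blood-forming tissue moved with Uhrf1 too. The 13 neutrophil and marrow genes summed to between 138 and 226 CPM at 8 weeks and between 232 and 642 CPM at 4 weeks, and 11 of 12 tested fell. Their most abundant gene was S100a9, at 40.1 to 72.4 CPM at 8 weeks and 70.3 to 202 CPM at 4 weeks. The 8 B cell precursor genes summed to between 3.97 and 9.94 CPM at 8 weeks and between 15.9 and 28 CPM at 4 weeks, and 5 of 6 tested fell. The 9 erythroid genes with an identifier summed to between 233 and 281 CPM at 8 weeks and between 321 and 596 CPM at 4 weeks, and 8 of 9 fell. Without both male 4-week libraries 0 neutrophil and marrow genes were called, with 3 B cell precursor and 3 erythroid genes, and without male 8-week libraries 2 and 3 these counts were 2, 4 and 7. The fit without both male 4-week libraries called 393 genes in all, against 1028 with all libraries. No gene of the 3 lists was at 0 in all libraries. Their part in the change of Uhrf1 was not tested. Markers of the oligodendrocyte lineage differed between ages as well, and their part was not tested either. Of 8 precursor genes 2 fell, 1 with either pair of male libraries left out, at summed levels of 616 to 674 CPM at 8 weeks and 725 to 779 CPM at 4 weeks. Of 8 genes of newly forming oligodendrocytes 7 fell and 1 rose, and their summed levels overlapped, at 1270 to 1410 CPM at 8 weeks and 1290 to 1400 CPM at 4 weeks. Their most abundant gene, Bcas1, was at 932 to 1040 CPM at 8 weeks and 807 to 884 CPM at 4 weeks. All 8 of 8 mature oligodendrocyte genes fell, at summed levels of 36800 to 43900 CPM at 8 weeks and 58800 to 62900 CPM at 4 weeks.

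**Figure D2:**
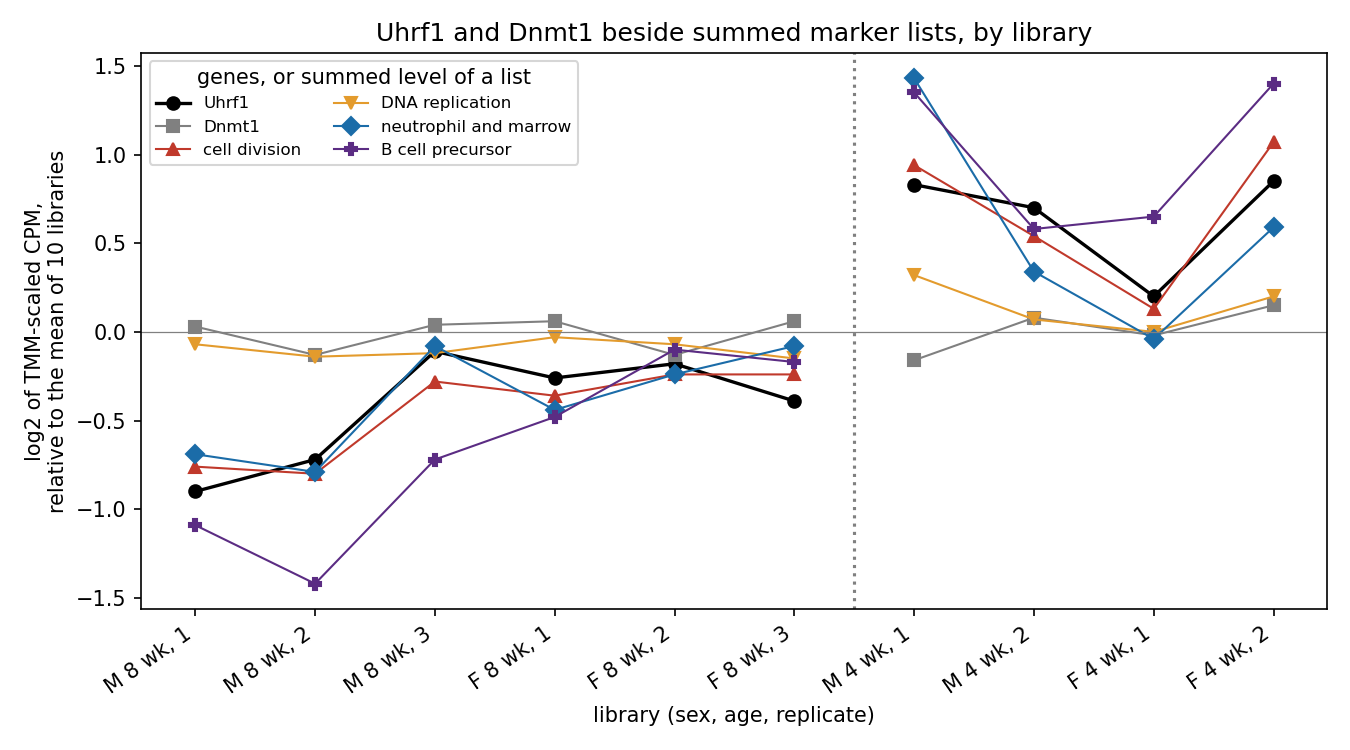
Log2 of the TMM-scaled CPM of Uhrf1 and Dnmt1, and of the summed CPM of 4 gene lists, relative to the mean of the 10 libraries (y axis), for each library (x axis, M male, F female, 8 weeks left of 4 weeks). Uhrf1 and the cell division sum are lowest in male 8-week libraries 1 and 2 and highest at 4 weeks, and Dnmt1 stays between -0.16 and 0.15.

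Dnmt1, the maintenance methyltransferase, did not pass the test. Its level lay between 50.3 and 57.5 CPM at 8 weeks, with a median of 56.5 CPM, against 49.5 and 58.4 CPM in male and 54.4 and 61.2 CPM in female 4-week libraries. The ages overlapped, and the log2 fold change was -0.03 (95% interval -0.18 to 0.12, edgeR adjusted p = 0.861). Dnmt1 was also the gene with the smallest relative spread, with an SD of 6.28% of the mean at 8 weeks and 9.11% at 4 weeks. The ratio of Uhrf1 to Dnmt1 counts within a library does not depend on scaling. It averaged 0.0378 ± 0.00795 at 8 weeks (SD, n = 6) and 0.0779 ± 0.0166 at 4 weeks (SD, n = 4). All 6 of the 8-week ratios lay below every 4-week ratio.

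Dnmt3a, the de novo methyltransferase that is abundant in neurons, fell by 0.49 on the log2 scale (SE 0.08, edgeR adjusted p = 0.00129). At 8 weeks it stood at 90.3, 96 and 108.9 CPM in male libraries 1 to 3 and at 103.2, 105.7 and 110.8 CPM in female libraries 1 to 3. At 4 weeks it stood at 125.4 and 155.3 CPM in the male and 132.5 and 160.0 CPM in the female libraries. Every 8-week library lay below every 4-week library, as held for 4.84% of all genes tested. Library 1 of each sex was the lower at 4 weeks. The mean was 102.5 ± 7.9 CPM at 8 weeks (SD, n = 6) and 143.3 ± 16.9 CPM at 4 weeks (SD, n = 4). Between 868 and 1782 counts per library lie behind these levels. An antisense gene, Dnmt3aos, shares 133 exonic bases with Dnmt3a in GENCODE M21, and it held 1 count over all 10 libraries. The 8 neuron genes summed to between 5920 and 6050 CPM at 8 weeks and between 5210 and 5630 CPM at 4 weeks. Of these 1 rose, against 1.61% of all genes tested, and 0 fell, with a median log2 fold change of 0.11. The part of neurons in the change of Dnmt3a was not tested.

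The ratio of maintenance to de novo writer differed between ages, which is given as a description. Dnmt1 counts over Dnmt3a counts were 0.624, 0.524 and 0.519 in male and 0.558, 0.478 and 0.519 in female libraries at 8 weeks. At 4 weeks they were 0.395 and 0.376 in male and 0.411 and 0.382 in female libraries. All 6 of the 8-week ratios lay above every 4-week ratio, at a mean of 0.537 ± 0.0496 (SD, n = 6) at 8 weeks and 0.391 ± 0.0155 (SD, n = 4) at 4 weeks. The genes nearest to the profile of Dnmt3a were Traf3, an adaptor of tumour necrosis factor receptors, Plekhg1, and Elovl6, a fatty acid elongase, at root mean square differences of 0.065, 0.076 and 0.078. All 3 fell, by 0.38, 0.55 and 0.57 on the log2 scale. Because they were picked by nearness to the profile of Dnmt3a, their fall is no separate result.

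Dnmt3b, the other de novo methyltransferase, was barely detected, with 6 to 17 counts per library. It averaged 0.877 ± 0.193 CPM at 8 weeks (SD, n = 6) and 1.06 ± 0.323 CPM at 4 weeks (SD, n = 4), and the ages overlapped. Its log2 fold change of -0.29 had a 95% interval from -0.90 to 0.32 (edgeR adjusted p = 0.608), which holds both 0 and the change of Dnmt3a. When 1 library was left out it lay between -0.42 and -0.09. Dnmt3l, a catalytically inactive cofactor of the de novo enzymes, had at most 4 counts in a library and was not tested.

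**Figure D3:**
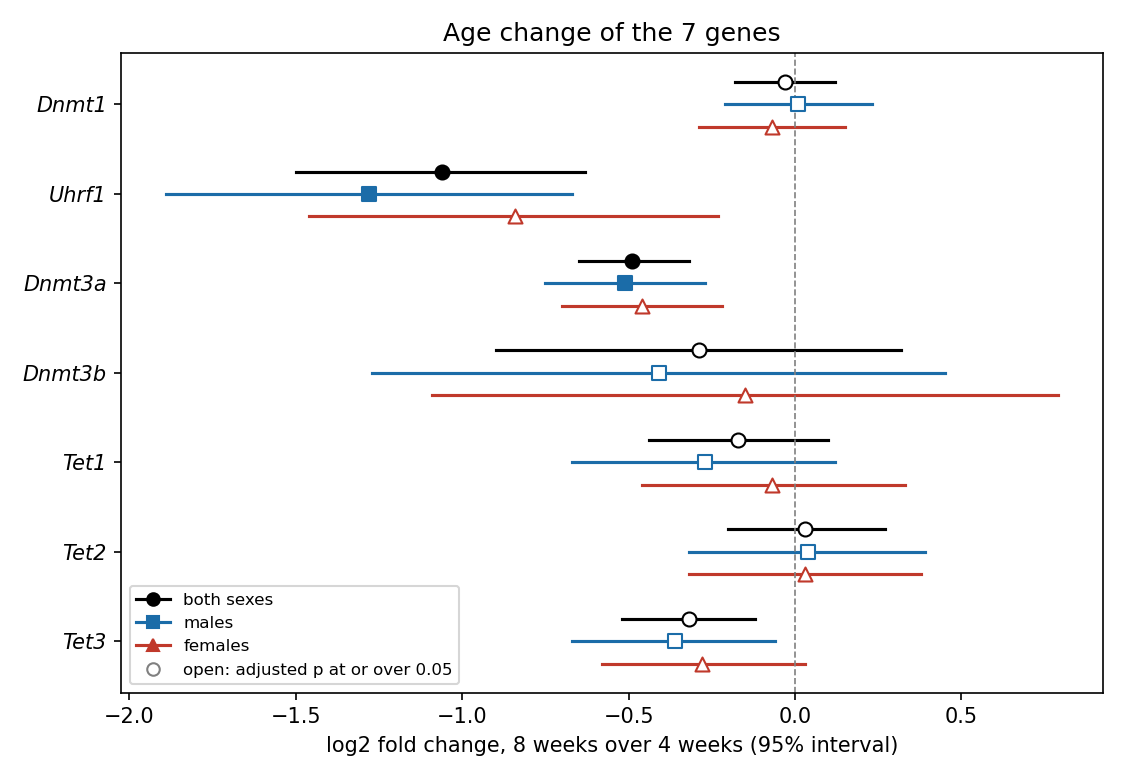
Log2 fold change of 8 weeks over 4 weeks with its 95% interval (x axis) for the 7 genes (y axis), over both sexes and within males and females. Filled symbols passed an adjusted p under 0.05: Uhrf1 and Dnmt3a over both sexes and within males, none within females.

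Among the 3 erasers, Tet3 had the largest difference between ages. Tet3 is the family member known from the oocyte and from neurons. It stood at 40.8, 45.9 and 51.1 CPM in male and 51.3, 44.5 and 57.6 CPM in female libraries at 8 weeks, against 53.8 and 64.1 CPM in male and 54.3 and 69.3 CPM in female libraries at 4 weeks. Of the 8-week libraries 5 of 6 lay below every 4-week library, and female 8-week library 3 overlapped with them. The log2 fold change was -0.32 (SE 0.09, 95% interval -0.52 to -0.12), and the adjusted p of 0.0606 by edgeR did not pass. It passed in 5 of 20 alternatives, among them DESeq2 (adjusted p = 0.0365), no filter on low counts (0.0314) and the fit without female 4-week library 1 (0.0304). Over all 20 the adjusted p of Tet3 lay between 0.000212 and 0.35.

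Tet1, the eraser known from embryonic stem cells, and Tet2, known from blood stem cells, did not differ between ages by more than the spread. Tet1 lay between 17.7 and 25.7 CPM at 8 weeks and between 18.9 and 30.2 CPM at 4 weeks, at a log2 fold change of -0.17 (95% interval -0.44 to 0.10, edgeR adjusted p = 0.477). Tet2 lay between 22.2 and 31.2 CPM at 8 weeks and between 18.3 and 30.7 CPM at 4 weeks, at 0.03 (95% interval -0.20 to 0.27, edgeR adjusted p = 0.898). The 4-week libraries spread widely: male library 1 had 18.3 CPM of Tet2 and male library 2 had 28.5 CPM. The ratio of Tet3 to Tet2 counts averaged 1.82 ± 0.109 at 8 weeks (SD, n = 6) and 2.38 ± 0.386 at 4 weeks (SD, n = 4), and all 6 of the 8-week ratios lay below every 4-week ratio. Tet1 over Tet2 counts overlapped between ages, at 0.798 to 0.93 at 8 weeks and 0.872 to 1.06 at 4 weeks. So did Tet3 over Dnmt3a counts, at 0.42 to 0.52 at 8 weeks and 0.41 to 0.433 at 4 weeks. The share of all gene pairs whose ratio separates the ages was not computed.

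Tet1, Tet2, Tet3 and Dnmt3a have long transcripts, and libraries differed in their share of long transcripts. Exons of the 4 genes span between 15.5 and 16.9 kb in GENCODE M21, against 7.38 kb for Dnmt1, 5.11 kb for Dnmt3b and 4.26 kb for Uhrf1. For each library the median centred log2 CPM of 885 genes with up to 1.5 kb of exons was subtracted from that of 2658 genes over 8 kb. This long-transcript score was -0.17, -0.09 and 0.16 in male and 0.18, 0.04 and 0.24 in female libraries at 8 weeks. At 4 weeks it was -0.43 and 0.12 in male and -0.21 and 0.19 in female libraries. Male 4-week library 1 and female 4-week library 1, the lower of each 4-week pair, were also the lower of their pairs for Dnmt3a, Tet1, Tet2 and Tet3, and likewise for the shorter Dnmt1 and Dnmt3b. For Uhrf1 this held in the female pair and not in the male pair. Over all tested genes longer than 8 kb the median log2 fold change with age was 0.056. Dnmt3a stood at -0.49 and Tet3 at -0.32, and a median over many genes does not speak to single genes. With the score as a covariate, an alternative chosen after the data were seen, 4 of the 7 genes were called lower. Tet3 then stood at -0.42 (edgeR adjusted p = 0.000212) and Tet1 at -0.29 (edgeR adjusted p = 0.0165), and Dnmt3a and Uhrf1 kept their calls. That fit called 1630 genes in all, against 1028 without the score. The source of the length difference was not tested.

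**Figure D4:**
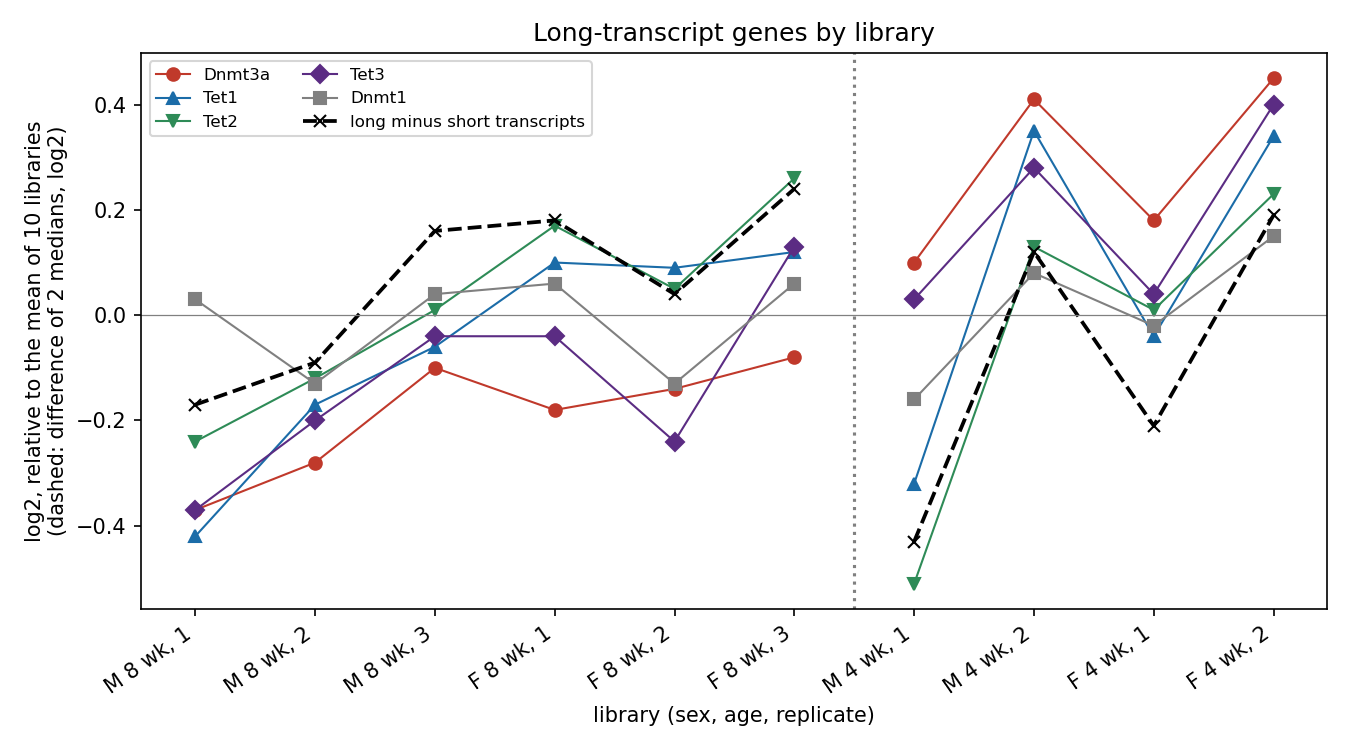
Log2 of TMM-scaled CPM of 5 genes relative to the mean of 10 libraries, and the long-transcript score of each library as a dashed line (y axis, log2), by library (x axis, 8 weeks left of 4 weeks). Tet2 spans 0.26 in female 8-week library 3, where the score is highest, to -0.51 in male 4-week library 1, where it is lowest, and Dnmt3a lies above 0 at 4 weeks and below 0 at 8 weeks in every library.

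Levels of different genes can be compared only per length, and here the length was the union of GENCODE M21 exons; the authors' annotation may differ. At 8 weeks Dnmt1 had 7.43 ± 0.466 CPM per kb, Dnmt3a 6.16 ± 0.475, Tet3 2.91 ± 0.36, Tet2 1.58 ± 0.198, Tet1 1.48 ± 0.203, Uhrf1 0.485 ± 0.1 and Dnmt3b 0.172 ± 0.0377 (SD, n = 6). At 4 weeks Dnmt3a had 8.61 ± 1.02 CPM per kb and Dnmt1 7.57 ± 0.69, followed by Tet3 at 3.62 ± 0.455, Tet1 at 1.65 ± 0.359, Tet2 at 1.54 ± 0.32, Uhrf1 at 1.02 ± 0.194 and Dnmt3b at 0.207 ± 0.0633 (SD, n = 4). Tet1 and Tet2 overlapped at both ages, so the order within that pair is not resolved. The ranges of Dnmt1 and Dnmt3a overlapped at 4 weeks, yet Dnmt3a was the higher within every 4-week library. It had 7.53 and 9.33 CPM per kb in male libraries 1 and 2, against 6.71 and 7.92 for Dnmt1. In female libraries 1 and 2 it had 7.96 and 9.62, against 7.38 and 8.30 for Dnmt1. With the longest transcript as the length, Dnmt3a came first at both ages, with 10.6 CPM per kb at 8 weeks and 14.8 at 4 weeks, against 9.34 and 9.52 for Dnmt1. Neither length changes the comparison of ages for a given gene.

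Within each sex the changes of Uhrf1 and Dnmt3a had the same direction. Among males both were called, Uhrf1 at -1.28 (SE 0.28, edgeR adjusted p = 0.0283) and Dnmt3a at -0.51 (SE 0.11, edgeR adjusted p = 0.0273), against 2.39% of all genes called lower, 0.837% higher and 3.22% in either direction. Without male 8-week libraries 2 and 3 neither was called, at -1.66 for Uhrf1 (edgeR adjusted p = 0.205) and -0.64 for Dnmt3a (edgeR adjusted p = 0.207). Leaving out male 4-week library 1 ended the call of Uhrf1 (edgeR adjusted p = 0.129), as did male 8-week libraries 1 (0.095) or 2 (0.11), or female 8-week library 1 (0.0548). That of Dnmt3a ended without male 4-week library 2 (0.105), male 8-week libraries 1 (0.101) or 2 (0.112), or female 8-week library 1 (0.0539). Among females edgeR called 0 of the 7, DESeq2 called 1 and limma-voom 0. Of all genes tested edgeR called 1.22% lower, 0.238% higher and 1.45% in either direction. By edgeR 2 of the 7 had an unadjusted p under 0.05 in females, as did 1879 of all 15540 genes tested. Uhrf1 stood at -0.84 there (SE 0.28, edgeR adjusted p = 0.221), and at -0.46 without female 4-week library 2. Dnmt3a stood at -0.46 (SE 0.11, edgeR adjusted p = 0.072), and was called in females by DESeq2 (adjusted p = 0.0141), and by edgeR without male 4-week library 1 (0.0186) or 2 (0.0232). In female libraries both genes were lower in 3 of 3 at 8 weeks than in either at 4 weeks, as were 16.6% of all genes tested.

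The age change was not shown to differ between the sexes. The interaction was -0.44 for Uhrf1 (95% interval -1.31 to 0.43) and -0.05 for Dnmt3a (-0.40 to 0.29), where a negative value is a larger fall in males. When 1 library was left out, the value of Uhrf1 lay between -0.81 and -0.17. Of the 7 genes edgeR, DESeq2 and limma-voom each called 0, and 0 had an unadjusted p under 0.05. Among all genes 0.0129% were called, and 749 of 15540 had an unadjusted p under 0.05. The interval was widest for Dnmt3b, at -1.53 to 1.01.

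Between sexes over both ages none of the 7 genes was called by edgeR, DESeq2 or limma-voom. Of all genes tested edgeR called 0.0901%, with 0.0644% higher and 0.0257% lower in males. An unadjusted p under 0.05 by edgeR was found for 1143 of all 15540 genes tested, and for 1 of the 7. That gene was Tet2, at 23.9 ± 3.91 CPM in male and 28.9 ± 2.19 CPM in female libraries (SD, n = 5 each). Its log2 fold change of male over female was -0.27 (SE 0.11, edgeR adjusted p = 0.633). The long-transcript score was negative in 3 of 5 male and 1 of 5 female libraries. The other 6 genes lay between -0.22 and 0.26, and their 95% intervals include 0.

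Genes that work with the 7 were taken from 5 lists. These held 51 genes, of which 46 were tested, 1 rose and 1 fell, against 6.62% of all genes called in either direction, and the median log2 fold change was 0. Idh1, the cytosolic isocitrate dehydrogenase that makes alpha-ketoglutarate, the cosubstrate of the Tet enzymes, was the gene that fell. It averaged 87 ± 5.67 CPM at 8 weeks (SD, n = 6) and 112.7 ± 6.93 CPM at 4 weeks (SD, n = 4), a change of -0.37 (SE 0.06, edgeR adjusted p = 0.00139). Its 8-week level lay below every 4-week library in 6 of 6 libraries, as held for 4.84% of all genes tested. Zbtb4, a zinc finger protein that binds methylated CpG sites, rose by 0.28 (SE 0.06, edgeR adjusted p = 0.0152). It stood at 200.2 ± 10.1 CPM at 8 weeks (SD, n = 6) and 164.8 ± 15.2 CPM at 4 weeks (SD, n = 4). Its 8-week level lay above every 4-week library in 6 of 6 libraries, as held for 2.89% of all genes tested. Without both male 4-week libraries neither was called, at edgeR adjusted p values of 0.0556 for Idh1 and 0.131 for Zbtb4, and Zbtb4 was not called without male 8-week libraries 2 and 3 (0.111).

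Of 10 methyl-CpG readers 1 rose and 9 did not pass, with a median of 0.01. Zbtb38, a relative of Zbtb4, stood at 0.24 (SE 0.10, edgeR adjusted p = 0.194) and Uhrf2, the paralog of Uhrf1, at -0.16 (SE 0.07, edgeR adjusted p = 0.226). Of 10 writer cofactors and recruiters edgeR, DESeq2 and limma-voom called 0, and 2 had an unadjusted p under 0.05 by edgeR. Of all 15540 genes tested, 3263 had such a p. Cdca7, a zinc finger partner of the remodeller Hells, stood at -0.51 (SE 0.23, edgeR adjusted p = 0.216) and Lig1, the DNA ligase of replication that Uhrf1 binds, at -0.19 (SE 0.08, edgeR adjusted p = 0.228). Of 9 Tet partners and cosubstrate enzymes Idh1 fell and 8 did not pass, with a median of 0.04.

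Of 11 genes of demethylation by repair the 3 tools called 0, and the median was -0.13. None had an unadjusted p under 0.05 by edgeR, against 3263 of all 15540 genes tested. Tdg, the glycosylase that removes oxidized methylcytosine, stood at -0.41 (SE 0.20, edgeR adjusted p = 0.267), Smug1, a uracil glycosylase, at 0.19 (SE 0.10, edgeR adjusted p = 0.32), and Neil1, another base excision glycosylase, at -0.22 (SE 0.12, edgeR adjusted p = 0.325). Of 6 genes of the methyl donor cycle the 3 tools called 0, and 1 had an unadjusted p under 0.05. It was Mat2a, which makes S-adenosylmethionine, the methyl donor, at -0.13 (SE 0.06, edgeR adjusted p = 0.217).

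**Figure D5:**
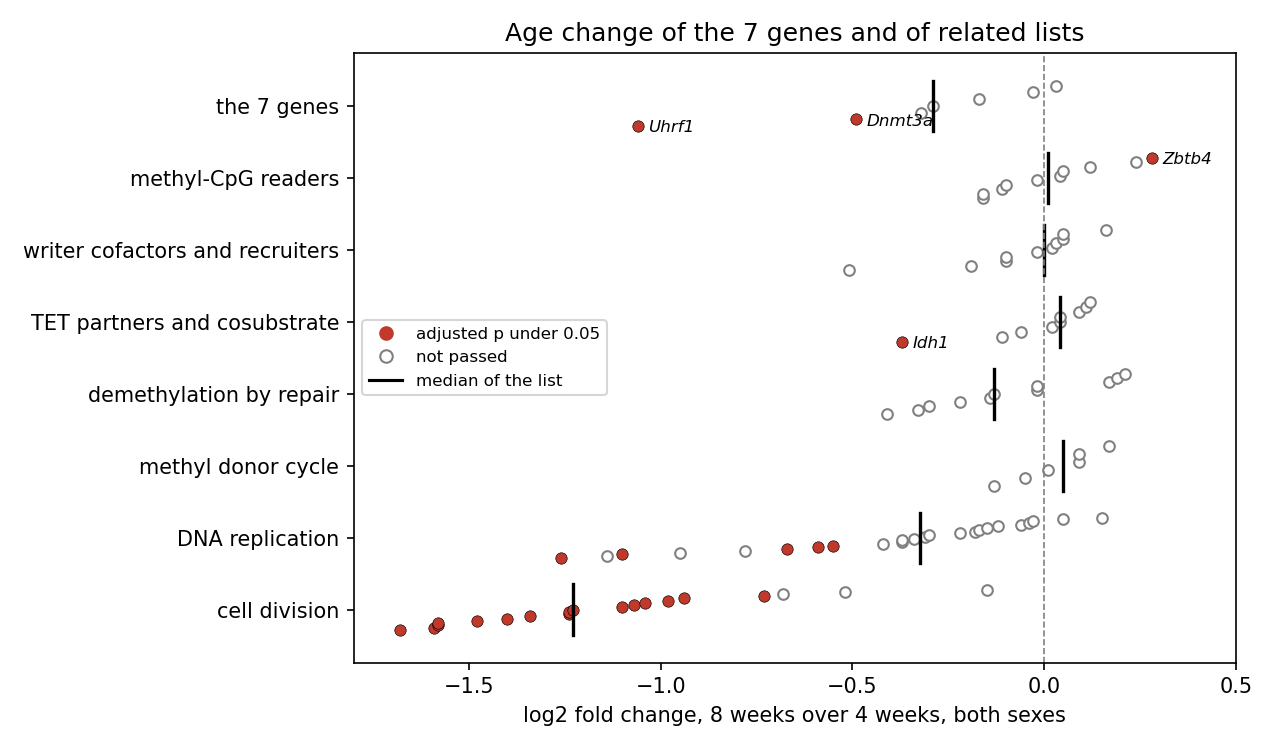
Log2 fold change of 8 weeks over 4 weeks over both sexes (x axis) for each tested gene of the 7, of 5 lists of related genes and of 2 lists of dividing cells (y axis), with filled points for an adjusted p under 0.05 and a bar at each list's median. The related lists have medians between -0.13 and 0.05, and the cell division list has a median of -1.23.

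For Dnmt1 the nearest profiles were Sos2, Sema4a and Hnrnpul1, at root mean square differences of 0.042, 0.048 and 0.049. For Tet1 they were Rnf213, Hip1 and Nsd1 (0.081, 0.082 and 0.084), and for Tet2 Tmem131, Aff1 and Cacna1a (0.053, 0.060 and 0.062). For Tet3 they were Adam19, Traf3 and Entrez Gene 102623 (0.084, 0.092 and 0.092), so Traf3 was near both Dnmt3a and Tet3. For Dnmt3b the distances were larger, 0.14 for 4933421O10Rik, 0.16 for Spdl1 and 0.17 for Pyroxd2. None of the nearest genes of Dnmt1, Tet1, Tet2 and Dnmt3b was called for age, which their picking by nearness makes no separate result.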

How the data were processed

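Spinal cord RNA was extracted with Trizol and sequenced in 10 libraries, per the labels' protocols. The authors deposited raw read counts per Entrez Gene identifier, 1 file per library. Per the submitters' processing notes, TopHat2 2.1.0, featureCounts and build mm9 were used. The sources used here do not name counting options, strand setting or annotation, so reads of overlapping or antisense genes cannot be separated. Symbols came from RefSeq GRCm38.p6 for 24191 of 26301 identifiers.

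Differences were computed in R 4.3.3 with edgeR 4.0.16, using TMM scaling, filterByExpr (minimum count 10, minimum total 15) and its two-sided quasi-likelihood test, adjusted by Benjamini-Hochberg over 15540 genes and called at 0.05. An additive model gave the comparisons of age across sexes and of sex across ages (7 residual degrees of freedom), and the other comparisons from a model of the 4 groups (6). SE is the absolute log2 fold change over the square root of F. The alternatives used DESeq2 1.42.0, limma-voom (limma 3.58.1), other scalings and filters, a replicate block, and fits without libraries. The pipeline was tested on simulated data. Replicate pairs differed by more than sampling noise (chi-square over degrees of freedom 1.98 to 11.9).

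The members and lists were chosen with earlier results of these data known. Named genes were all members, the 10 related genes with the lowest p for age and any other past 0.05. Also named were the 3 lowest of each dividing-cell list and the other subunits of the replicative helicase. The most abundant gene of some lists and the 3 nearest profiles per member (log2 CPM, prior count 2) were named too. One erythroid gene had no identifier.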

Additional observations from a re-analysis of the deposited data

How the results depend on the processing

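Uhrf1 kept its call for age over both sexes in 19 of 20 alternatives and Dnmt3a in 20 of 20. Uhrf1 lost it without both male 4-week libraries, at -0.84 (edgeR adjusted p = 0.184), where 1 of the 7 genes and 393 genes in all were called. Genes called for age over both sexes were 1028, against 474 without male 8-week libraries 2 and 3, 1630 with the long-transcript score as covariate (4 of the 7), and 719 to 1473 when 1 library was left out (2 to 3 of the 7). Within males 501 genes and 2 of the 7 were called, against 1546 and 4 with the score, 15 and 0 without male 8-week libraries 2 and 3, and 188 to 1199 (0 to 2 of the 7) when 1 library was left out. Within females 226 genes and 0 of the 7 were called, against 340 and 1 with no filter, 1 of the 7 with DESeq2, 654 and 2 with the score, 118 without male 8-week libraries 2 and 3, 393 and 1 without both male 4-week libraries, and 62 to 394 (0 to 1) when 1 library was left out. For the interaction 2 genes were called, 1 with limma-voom, 0 without male 8-week libraries 2 and 3, and 1 to 2 when 1 library was left out. For sex 14 genes were called, against 60 with no filter, 35 with DESeq2, 23 with the score, 9 without both male 4-week libraries and 10 to 28 when 1 library was left out.

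With the replicate number as a block, 1 of the 7 genes, Dnmt3a, was called within females (-0.50), Tet3 was called for age over both sexes at -0.40 (adjusted p = 0.0117), and 38 genes were called for sex. Of 13 pairs of same-numbered libraries of different groups, 5 had deviations that correlated over 0.1 (range -0.21 to 0.24). This check cannot decide whether the numbers pair the samples, because groups this small do not give a separate value for each number. Male and female 4-week libraries with the same number correlated at 0.21 for either number.

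Signs that turned belonged to genes that did not pass. For age over both sexes Tet2 stood at -0.01 with the block and without male 8-week libraries 2 and 3, and at -0.08 with the score. Within males Dnmt1 stood at -0.02 with the block and -0.03 with the score, and Tet2 at -0.01 with the block, -0.05 with the score and -0.09 without male 8-week libraries 2 and 3. Within females Tet2 stood at -0.02 with the block and -0.10 with the score. For the interaction Tet2 stood at -0.01 with upper quartile scaling and -0.12 without male 8-week libraries 2 and 3. For sex the score gave 0.02 for Dnmt1, 0.01 for Dnmt3a, 0.07 for Uhrf1 and 0 for Tet3. Causes were not tested. Leaving out 1 library gave, for age over both sexes, Dnmt1 -0.08 to 0.02, Tet1 -0.26 to 0 and Tet2 -0.07 to 0.16. Within males it gave Dnmt1 -0.09 to 0.14, Dnmt3b -0.67 to 0, Tet1 -0.55 to 0.12 and Tet2 -0.23 to 0.41, and within females Dnmt1 -0.14 to 0.03, Dnmt3b -0.44 to 0.21, Tet1 -0.23 to 0.15 and Tet2 -0.07 to 0.16. For the interaction it gave Dnmt1 -0.02 to 0.21, Dnmt3a -0.20 to 0.11, Dnmt3b -0.61 to 0.15, Tet1 -0.48 to 0.19, Tet2 -0.26 to 0.37 and Tet3 -0.28 to 0.07, and for sex Uhrf1 -0.18 to 0.06. The age comparison within males and the interaction could not be fitted without both male 4-week libraries.

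Uhrf1 and Dnmt3b rest on few counts, which limits the precision of their levels.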
